A study of Xenopus laevis with 28 samples.

Results

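The genes described here make melanin, the dark pigment of the tadpole skin and eye, and were followed through the development of the frog Xenopus laevis. They were chosen by name, as every row of the expression table called dct, tyr, tyrp1, pmel, mitf, slc45a2 or oca2 once the ending .L or .S is taken off. X. laevis is allotetraploid, and .L and .S mark the copies of a gene on its long and short chromosome sets. The rule found 8 of 45831 gene models, 4 with the ending L and 4 with the ending S, and these stand for 5 of the 7 symbols. They are dct.L (Xelaev18013152m), dct.S (Xelaev18015673m), tyr.S (Xelaev18016340m), tyrp1.L (Xelaev18006806m), tyrp1.S (Xelaev18010061m), slc45a2.L (Xelaev18008379m), oca2.L (Xelaev18013019m) and oca2.S (Xelaev18015561m). The rule found no model named mitf, tyr.L or slc45a2.S. For pmel the table held pmel-like.L and pmel-like.S, which the rule leaves out and which are described after the members.

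Melanin is made in melanosomes, organelles related to lysosomes, in the melanophores that derive from the neural crest and in the retinal pigment epithelium, which derives from the optic cup. Tyrosinase, the product of tyr, catalyses the rate-limiting oxidation of tyrosine. Dopachrome tautomerase (dct) and tyrosinase-related protein 1 (tyrp1) act on later intermediates of eumelanin. The proteins of slc45a2 and oca2 are melanosome membrane proteins that set the conditions in which tyrosinase works, and loss of either gives albinism in vertebrates. Pmel forms the fibrils on which melanin is laid down. In Xenopus, pigment granules are also made in the oocyte and darken its animal pole.

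Messenger RNA of the inbred J strain was captured by its poly-A tail and sequenced without strand information. The staged libraries came from whole untreated embryos of 2 clutches named Taira and Ueno, each clutch from 1 pair of frogs, with 1 library per clutch for the unfertilised egg and for Nieuwkoop and Faber stages 8, 9, 10.5, 12, 15, 20, 25, 30, 35 and 40. The Ueno set also held 1 library each of oocytes of stages 1-2, 3-4 and 5-6, and a second collection held 1 library each of stages 8, 10 and 35. Values are TPM, the level of a transcript per length relative to all transcripts of the same library. Each stage therefore has 2 values, 1 per clutch (1 at stage 40). A p-value sets a change against the spread that stage and clutch leave over all 21 libraries fitted, not that of the compared stages alone.

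Of 10 Ueno libraries with a Taira partner, 9 were closest in rank correlation over all tested models to the Taira library of the same stage, with Spearman coefficients between partners from 0.892 to 0.971. The library labelled stage 25 Ueno was closer to stage 30 Taira (0.915) than to stage 25 Taira (0.907). The library labelled stage 40 Ueno correlated at 0.964 with the Ueno egg and at 0.489 with stage 40 Taira. It was left out of every result, so that stage 40 rests on the Taira library alone. With it kept, the 3 rises from stage 25 to 30 given below did not pass the test (dct.L adjusted p = 0.352, slc45a2.L and tyr.S 0.202, limma). Without stage 25 Ueno these 3 were called (adjusted p = 0.037, 0.00348 and 0.00272). The second stage 35 library correlated at 0.962 with stage 35 Taira and at 0.916 with stage 35 Ueno of the first collection. The lowest coefficient between partners, 0.892, was that of stage 35 Ueno with stage 35 Taira.

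The 5 abundant members were dct.L, tyr.S, tyrp1.L, slc45a2.L and oca2.L, and each had 2 periods of expression. All were present in oocytes and in cleaving to gastrulating embryos, were at a few TPM or less at stages 15 to 25, and came back between stages 25 and 35. Summed over the 5, stage 15 held 8 TPM in Taira and 8.42 in Ueno, stage 20 held 5.69 and 3.7 TPM, and stage 25 held 8.62 and 3.77 TPM. The sum was 110.4 and 94.5 TPM by stage 30, and stage 35 held 344 and 248 TPM. In whole embryos, fewer cells of a type and less RNA per cell cannot be told apart.

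**Figure D1:**
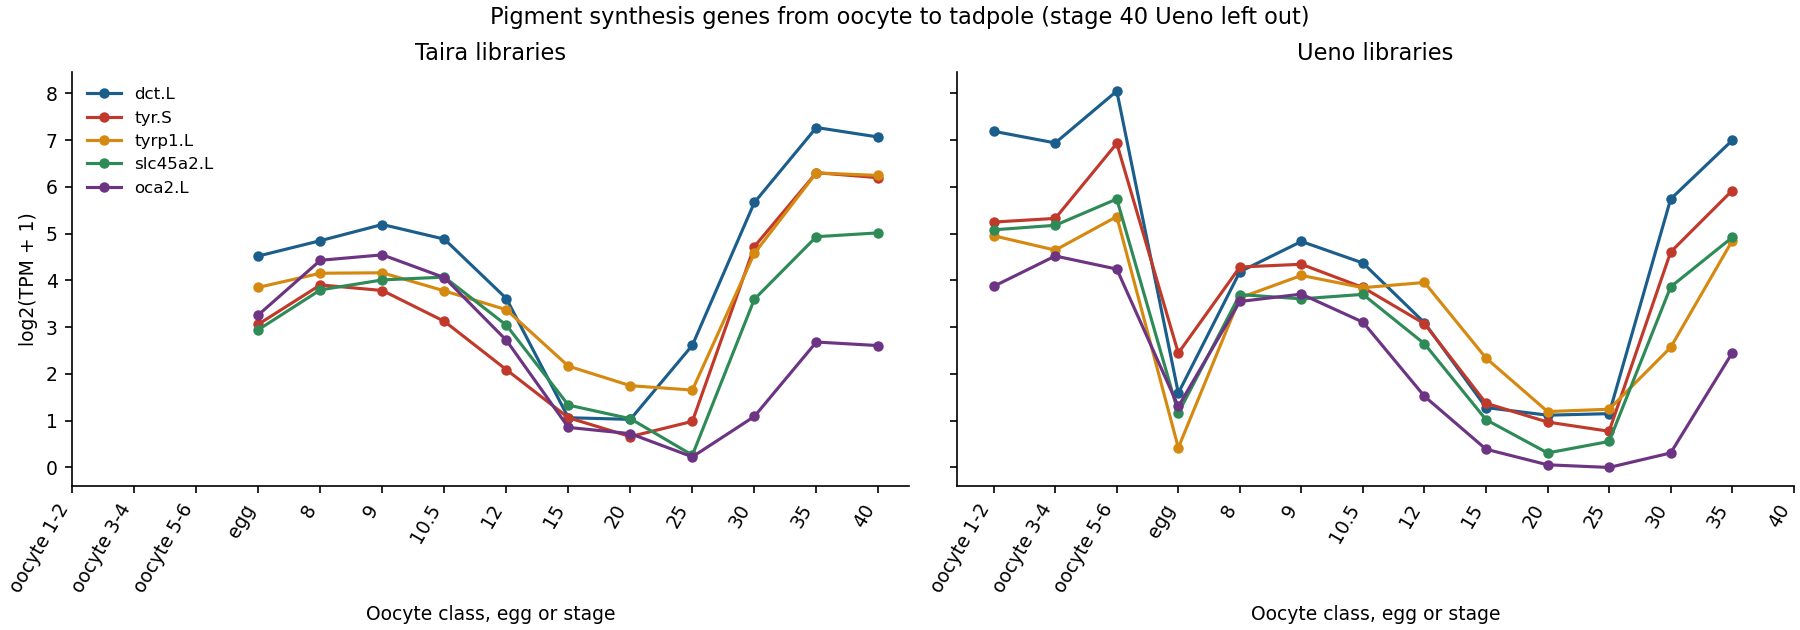
Levels of the 5 abundant members, as log2(TPM + 1), from oocyte classes through egg and stages 8 to 40, with Taira libraries on the left and Ueno libraries on the right and 1 point per library. Every line is low at stages 15 to 25 and higher at stage 30 than at stage 25; in Taira oca2.L at stage 35 (5.42 TPM) lies below its stage 9 level (22.4 TPM).

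Tyrosinase was measured as tyr.S. In the Taira clutch it was at 1.09, 0.58, 0.98, 25.4, 78 and 72.4 TPM at stages 15, 20, 25, 30, 35 and 40. In the Ueno clutch it was at 1.59, 0.96, 0.71, 23.4 and 59.6 TPM at stages 15 to 35, and the second stage 35 library had 61.5 TPM. All libraries of stages 15 to 25 lay below 2 TPM and all from stage 30 on above 23 TPM, with no overlap. From stage 15 to 35 tyr.S rose by 4.89 ± 0.36 (SE, n = 2 per stage) on the log2(TPM + 1) scale (limma adjusted p = 2.48e-07), and from stage 25 to 30 by 3.79 ± 0.36 (adjusted p = 7.71e-05).

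The gene for dopachrome tautomerase, dct.L, was the most abundant of the members at each stage from 30 to 40. Its Taira values were 1.09, 1.04, 5.12, 49.8, 153 and 133 TPM at stages 15 to 40. Its Ueno values were 1.43, 1.17, 1.22, 52.5 and 127 TPM at stages 15 to 35, with 130.1 TPM in the second stage 35 library. The clutches lay close together except at stage 25, where Taira was 4.2 times Ueno. From stage 15 to 35 dct.L rose by 5.96 ± 0.58 (SE, n = 2 per stage, log2 scale, limma adjusted p = 2.69e-06). From stage 25 to 30 it rose by 3.82 ± 0.58 (adjusted p = 0.00219).

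For tyrp1.L, the related enzyme that acts late in eumelanin synthesis, the clutches differed more. Taira had 3.49, 2.36, 2.15, 22.9, 77.8 and 74.8 TPM at stages 15 to 40. Ueno had 4.06, 1.29, 1.37, 4.93 and 27.8 TPM at stages 15 to 35, and the second stage 35 library had 25.1 TPM. At stage 30 Taira was 4.65 times Ueno and at stage 35 it was 2.8 times Ueno, so that the Ueno library of stage 35 stood near the Taira library of stage 30. The rise from stage 15 to 35 was 3.32 ± 0.73 (SE, n = 2 per stage, log2 scale, limma adjusted p = 0.00181). The change from stage 25 to 30 was 2.12 ± 0.73 and did not pass the test (adjusted p = 0.146), though with quantile normalization it did (2.90). Over 14 alternatives its limma adjusted p ran from 0.0192 there to 0.786 with stage 40 Ueno kept.

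Of the membrane proteins, slc45a2.L had nearly equal values in the clutches at late stages. Taira had 1.52, 1.06, 0.2, 11.1, 29.6 and 31.4 TPM at stages 15 to 40. Ueno had 1.03, 0.24, 0.47, 13.5 and 29.3 TPM at stages 15 to 35, with 30.7 TPM in the second stage 35 library. No library of stages 15 to 25 reached 2 TPM and none from stage 30 on was below 11 TPM. It rose by 3.75 ± 0.40 from stage 15 to 35 (SE, n = 2 per stage, log2 scale, limma adjusted p = 6.87e-06) and by 3.32 ± 0.40 from stage 25 to 30 (adjusted p = 0.000409).

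The other membrane protein gene, oca2.L, was the least abundant. Its Taira values were 0.81, 0.65, 0.17, 1.13, 5.42 and 5.09 TPM at stages 15 to 40. Its Ueno values were 0.31, 0.04, 0, 0.24 and 4.46 TPM at stages 15 to 35, and the second stage 35 library had 1.7 TPM, below both of the first collection. It rose by 1.94 ± 0.36 from stage 15 to 35 (SE, n = 2 per stage, log2 scale, limma adjusted p = 0.000569). Its change from stage 25 to 30 was 0.59 ± 0.36 (adjusted p = 0.429), and it rose by 1.87 ± 0.36 from stage 30 to 35 (adjusted p = 0.00964).

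**Figure D2:**
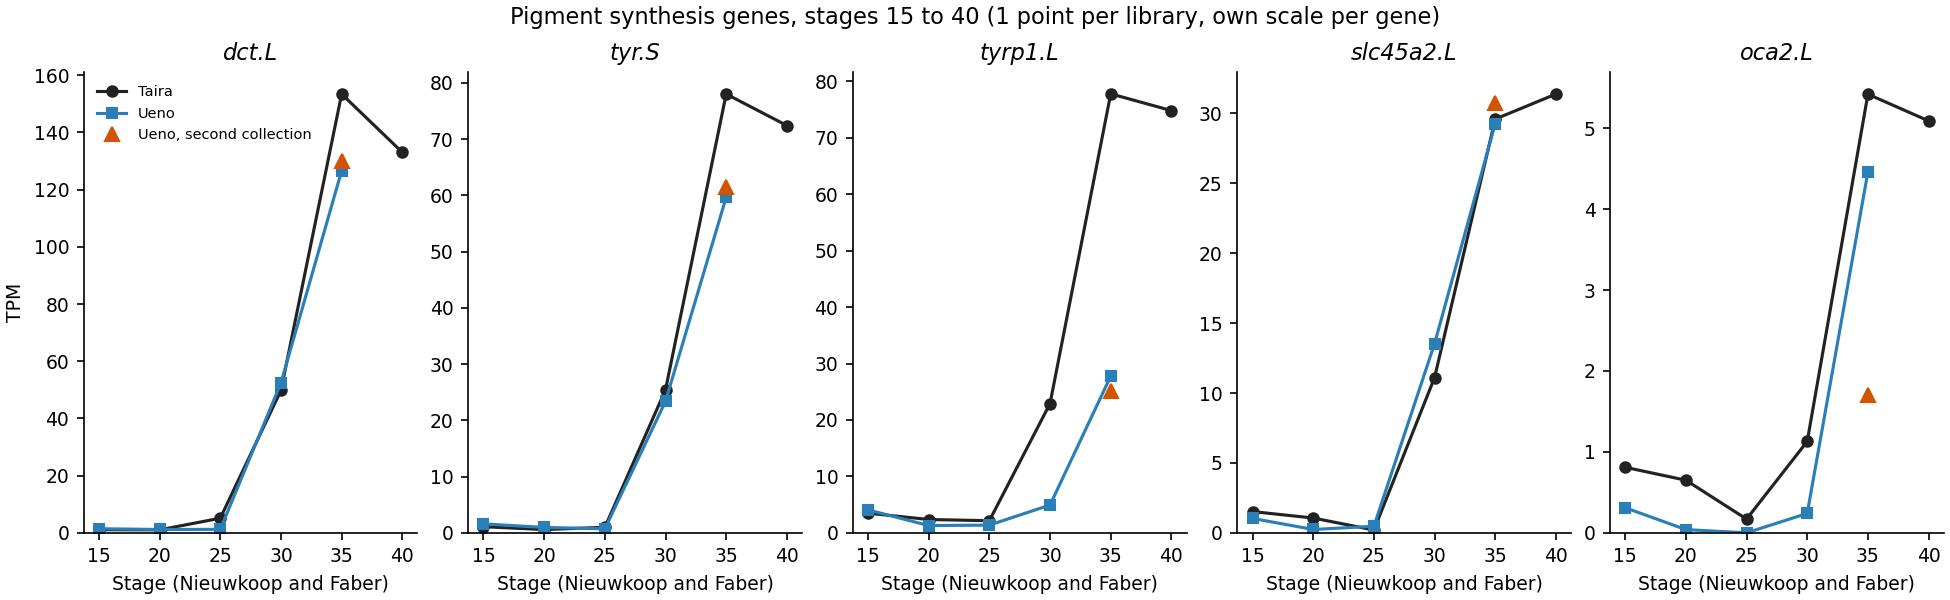
TPM of each abundant member at stages 15 to 40, 1 panel per gene with its own axis, circles for Taira, squares for Ueno and a triangle for the second stage 35 library. The clutches run together for slc45a2.L (29.6 and 29.3 TPM at stage 35) and apart for tyrp1.L (77.8 and 27.8 TPM).

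The copies dct.S, oca2.S and tyrp1.S did not reach 1 TPM in any of 27 libraries and were not tested. The model dct.S was listed at 0 in 19 libraries and had at most 0.44 TPM, in oocytes of stages 5-6. For oca2.S the file listed 0 in 18 libraries, and its highest value was 0.16 TPM. For tyrp1.S 22 libraries were listed at 0, and the highest value was 0.33 TPM at stage 35 in Taira. Summed over the 11 libraries of stages 15 to 40, the S copy made up 0.057% of dct, 0.242% of tyrp1 and 1.40% of oca2. The L copy was higher in 11 of 11 libraries for dct and tyrp1 and in 10 of 11 for oca2, whose copies were both at 0 in stage 25 Ueno. Reads that match both copies were assigned by the authors' software, so a low copy is uncertain by as much as such reads were misplaced.

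All 5 tested members rose from stage 15 to 35, where 19.9% of the 28171 models tested were called higher and 31.5% lower. Their median change was 3.75 on the log2 scale, against -0.26 for all models tested. With median-of-ratios scaling the median of all models moved to -0.02 and the calls over all models from 5595 higher and 8870 lower to 7293 and 7587, and the 5 members stayed called higher. The 3 S copies did not enter this count. In the F-test for differences among stages 12 to 40 all 5 were called, with limma adjusted p from 6.75e-08 (tyr.S) to 0.000719 (tyrp1.L), where 65.2% of models were called.

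Step by step, no member was called from stage 15 to 20 or from 20 to 25, either by limma's adjusted p or at an unadjusted p under 0.05. Of all models, 2.27% were called higher and 0.990% lower in the first of these steps, and 0.302% higher and 0.0532% lower in the second. From stage 25 to 30 the 3 members dct.L, tyr.S and slc45a2.L rose, where 1.74% of all models were called higher. From stage 30 to 35 the 2 members oca2.L and tyr.S rose (tyr.S by 1.45 ± 0.36, limma adjusted p = 0.0481), where 2.09% of all models were called higher. In that step dct.L changed by 1.43 ± 0.58 (adjusted p = 0.282), slc45a2.L by 1.2 ± 0.40 (0.169) and tyrp1.L by 2.00 ± 0.73 (0.209), none past the test. The call of tyr.S in that step and that of oca2.L did not hold together in any fit without 1 of the 4 libraries of stages 30 and 35, in which 0 or 1 member was called. From stage 35 to 40, with 1 library at stage 40 assumed to vary like the others, no member was called, at an unadjusted p under 0.05 neither, and 0.408% of all models were called higher and 0.0355% lower.

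**Figure D3:**
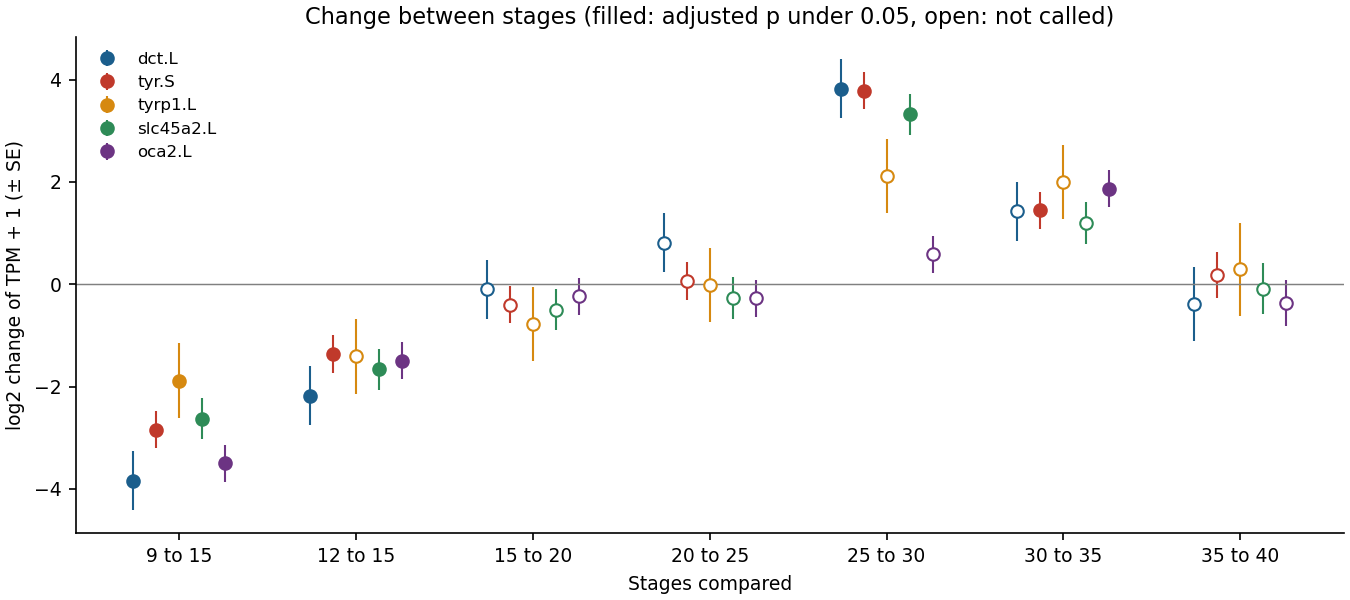
Change between stages of the 5 tested members on the log2(TPM + 1) scale, with standard errors from the limma fit as bars (n = 2 libraries per stage, 1 at stage 40). Filled points have an adjusted p under 0.05; the steps from 15 to 20 and 20 to 25 hold no filled point, and that from 25 to 30 holds dct.L, tyr.S and slc45a2.L.

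The order of onset depended on the measure. By the first stage from 15 on at which both clutches had at least 1 TPM and kept it, onset was at stage 15 for dct.L and tyrp1.L, at stage 30 for tyr.S and slc45a2.L, and at stage 35 for oca2.L. The early calls of dct.L and tyrp1.L rest on levels of 1.04 to 5.12 TPM at stages 15 to 25. These levels followed a fall from stage 12, where dct.L had 11.2 and 7.54 TPM and tyrp1.L 9.36 and 14.5 TPM in Taira and Ueno. Stage 15 is here only the first stage counted and not the start of a rise. At a level of 2 TPM, dct.L, tyrp1.L, tyr.S and slc45a2.L all had their onset at stage 30 and oca2.L at stage 35. At 5 TPM, tyrp1.L moved to stage 35 and oca2.L to stage 40. For oca2.L this is not a later rise, as Taira had 5.42 TPM at stage 35 and 5.09 TPM at stage 40. Ueno had 4.46 TPM at stage 35 and is not counted at stage 40.

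The members were also ordered by the share of the stage 35 level already reached at stage 30. This share does not mark the start of a rise. It was highest for slc45a2.L, at 37.5% in Taira and 46.2% in Ueno. For dct.L it was 32.5% and 41.4%, and for tyr.S 32.6% and 39.2%, so that these genes changed places between the clutches. For tyrp1.L it was 29.4% and 17.8%, and for oca2.L 20.8% and 5.38%. The Ueno share of oca2.L rests on 0.24 TPM at stage 30 and 4.46 TPM at stage 35, where the second library had 1.7 TPM. By this share slc45a2.L came first in both clutches, then dct.L and tyr.S, then tyrp1.L, and oca2.L last. The distance between neighbours within a clutch was often smaller than the difference between clutches for the same gene.

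Read by linear interpolation, the stage at which a gene passed 50 percent of its highest value over stages 15 to 35, that of stage 35 for every member, gave the same order. For slc45a2.L it was 31 in Taira and 30.4 in Ueno, for dct.L 31.3 and 30.7, for tyr.S 31.3 and 30.9, for tyrp1.L 31.5 and 32, and for oca2.L 31.8 and 32.4. All these points lie between the sampled stages 30 and 35, which a library was not taken between, so they restate the shares above. At stage 25 no member had more than 4.93% of its stage 35 level. In Taira dct.L stood highest there with 3.34%, and in Ueno tyrp1.L with 4.93%. The gene slc45a2.L, first by the share at stage 30, had 0.68% at stage 25 in Taira, the lowest there, and 1.61% in Ueno. The order at stage 25 thus differed from that at stage 30, on levels near or below 1 TPM for slc45a2.L.

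**Figure D4:**
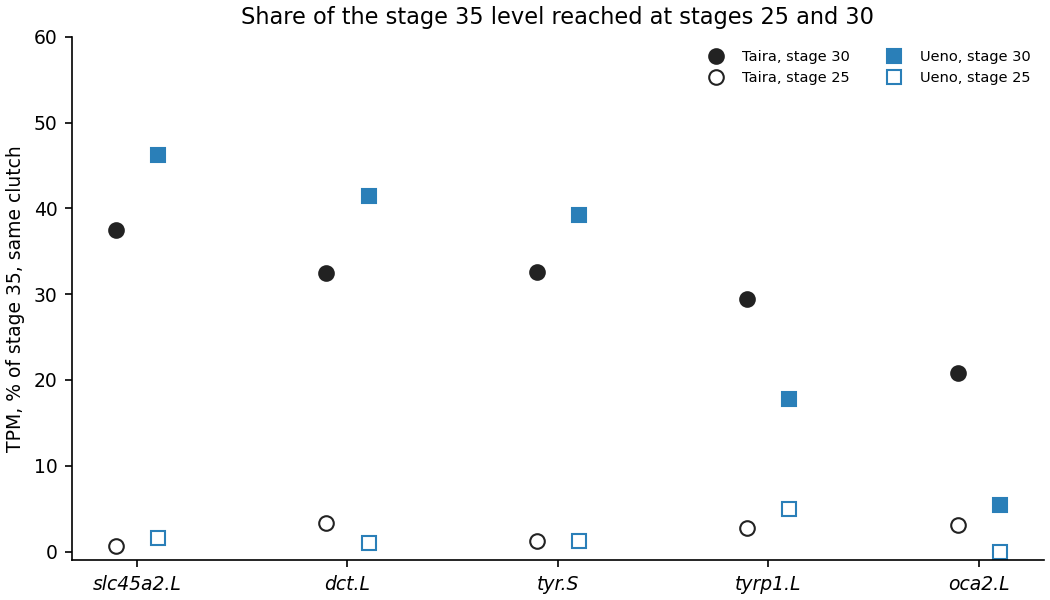
Level at stage 30 (filled) and at stage 25 (open) as a percent of the stage 35 level of the same clutch, circles for Taira and squares for Ueno. Genes are ordered from the highest to the lowest share at stage 30, where dct.L and tyr.S change places between the clutches. At stage 30 the values run from 37.5% and 46.2% for slc45a2.L down to 20.8% and 5.38% for oca2.L, and at stage 25 none exceeds 4.93%.

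Relative to their lowest point, the members rose by different factors. From the lowest of stages 15 to 25 to stage 35, dct.L rose 148-fold in Taira and 108-fold in Ueno, slc45a2.L 148-fold and 122-fold, and tyr.S 134-fold and 84-fold. For tyrp1.L the factors were 36.2 and 21.5, and for oca2.L 31.9 in Taira, with no factor in Ueno because its lowest value was listed at 0. Factors on such low TPM carry the error of a value below or near 1 TPM, and the depth behind it is unknown.

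Late, only the highest and the lowest of the levels kept their rank, while tyr.S, tyrp1.L and slc45a2.L changed order between libraries. At each library of stages 30 to 40 and in the second stage 35 library, dct.L ranked first and oca2.L last of the 5. At stage 35 dct.L (127 to 153 TPM) lay above tyr.S (59.6 to 78 TPM) without overlap. The ranges of tyr.S and tyrp1.L (27.8 to 77.8 TPM) overlapped, as did those of tyrp1.L and slc45a2.L (29.3 to 29.6 TPM), and oca2.L (4.46 to 5.42 TPM) lay below all. The ratio of dct.L to tyr.S was 1.84 to 2.24 in these libraries, and dct.L made up 42% to 55.5% of the summed TPM. At stages 15 and 20 tyrp1.L was instead the most abundant, with 34.9% to 48.2% of a sum under 9 TPM.

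Before stage 15 the 5 members were measured in every library. In oocytes of stages 1-2, 3-4 and 5-6, dct.L had 145, 122 and 264 TPM, tyr.S 37, 39.1 and 121 TPM, and slc45a2.L 32.9, 35.2 and 52.5 TPM. The values of tyrp1.L were 30, 24.1 and 40.2 TPM and those of oca2.L 13.7, 22 and 17.9 TPM. Each class is 1 library, so these differences have no replicate check. The 5-6 class stood above both stage 35 libraries for dct.L, tyr.S, slc45a2.L and oca2.L, whereas tyrp1.L lay between them.

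Eggs differed between clutches. Summed TPM was 58.1 in the Taira egg and 9.51 in the Ueno egg. The Taira egg was 39.5 times the Ueno egg for tyrp1.L and 10.9 times for dct.L. The ratio was 5.85 for oca2.L, 5.41 for slc45a2.L and only 1.65 for tyr.S (7.36 and 4.45 TPM). Between egg and stage 12, oocytes left aside, the members had their early maximum at stages 8 to 10.5. It was at stage 9 in both clutches for dct.L (35.7 and 27.5 TPM), tyrp1.L (16.9 and 16.2 TPM) and oca2.L (22.4 and 12.1 TPM). For slc45a2.L it was at stage 10.5 (15.8 and 12 TPM), and for tyr.S at stage 8 in Taira (14 TPM) and stage 9 in Ueno (19.3 TPM). A rise in TPM between egg and stage 8 in poly-A selected RNA measures polyadenylated transcripts relative to all others.

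These levels then fell. From stage 12 to 15 dct.L fell by 2.18 ± 0.58, slc45a2.L by 1.67 ± 0.40, oca2.L by 1.50 ± 0.36 and tyr.S by 1.36 ± 0.36 on the log2 scale (SE, n = 2 per stage, limma adjusted p = 0.0149, 0.00906, 0.00879 and 0.0155). These are 4 of the 5 tested members, where 10.4% of all models were called lower. The change of tyrp1.L was -1.41 ± 0.73 (adjusted p = 0.191). Without the Taira library of stage 15 none of the 5 was called in this step, and without either library of stage 12 only 1 was.

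Over the longer span from stage 9 to 15, a comparison added after the values were seen, all 5 were called lower, where 39.9% of all models were. The log2 change was -3.84 ± 0.58 for dct.L (limma adjusted p = 5.37e-05), -3.50 ± 0.36 for oca2.L (1.72e-06), -2.85 ± 0.36 for tyr.S (1.27e-05) and -2.63 ± 0.40 for slc45a2.L (6.44e-05). For tyrp1.L it was -1.88 ± 0.73 (0.0359), a call that was lost in 9 of 14 alternatives.

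For dct.L, tyr.S and slc45a2.L the balance of the 2 periods depended on whether oocytes were counted. Oocytes of stages 5-6 had 1.72 and 2.09 times the stage 35 level of Taira and Ueno for dct.L. This ratio was 1.55 and 2.03 for tyr.S, 1.77 and 1.79 for slc45a2.L, 3.31 and 4.02 for oca2.L, and 0.52 and 1.45 for tyrp1.L. Against the early maximum, taken from egg to stage 12 without oocytes, dct.L at stage 35 was 4.3 times as high in Taira and 4.6 times in Ueno. For tyr.S the factors were 5.58 and 3.09, and for slc45a2.L 1.87 and 2.44. For tyrp1.L the factors were 4.6 and 1.71. For oca2.L they were 0.24 and 0.37, so that its stage 35 level was below its early maximum in both clutches. Averaged over stages, oca2.L was lower in Ueno by 0.82 ± 0.16 on the log2 scale (limma adjusted p = 0.00108), in a comparison where 44.9% of all models were lower and 6.55% higher in Ueno. No other member passed that test, with adjusted p = 0.0533 for dct.L and 0.0633 for tyrp1.L. The library titles give each clutch its own set, so a difference between clutches cannot be told apart from a difference between sets.

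The pmel-like models, compared after their names were seen, also had an early and a late period, with a different copy higher in each. In Taira pmel-like.L (Xelaev18013378m) had 34.5 TPM at stage 9, 7.69 at stage 15, 13.4 at stage 25, 62.8 at stage 30 and 174 at stage 35. In Ueno it had 55.6, 11.5, 13.7, 90.8 and 173 TPM at those stages. It rose by 4.06 ± 0.48 from stage 15 to 35 (SE, n = 2 per stage, log2 scale, limma adjusted p = 1.68e-05) and by 2.39 ± 0.48 from stage 25 to 30 (0.0161). For pmel-like.S (Xelaev18015875m) the same stages had 130.5, 28.3, 16, 26.8 and 76.1 TPM in Taira and 159.5, 38.8, 18.3, 22.7 and 44.1 TPM in Ueno. Its change from stage 15 to 35 was 0.79 ± 0.51 (adjusted p = 0.213).

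The copies thus exchanged rank. The L copy made up 17.9% to 26.1% of summed pmel-like TPM in each library of the first collection from egg to stage 20, and 26.8% in the second stage 8 library. Its share in Taira and Ueno was 45.7% and 42.9% by stage 25, then 70.1% and 80% (stage 30) and 69.6% and 79.7% (stage 35). In the 3 oocyte libraries it made up 27.8% to 39.4%. The exchange was the same in both clutches and was described without a test.

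**Figure D5:**
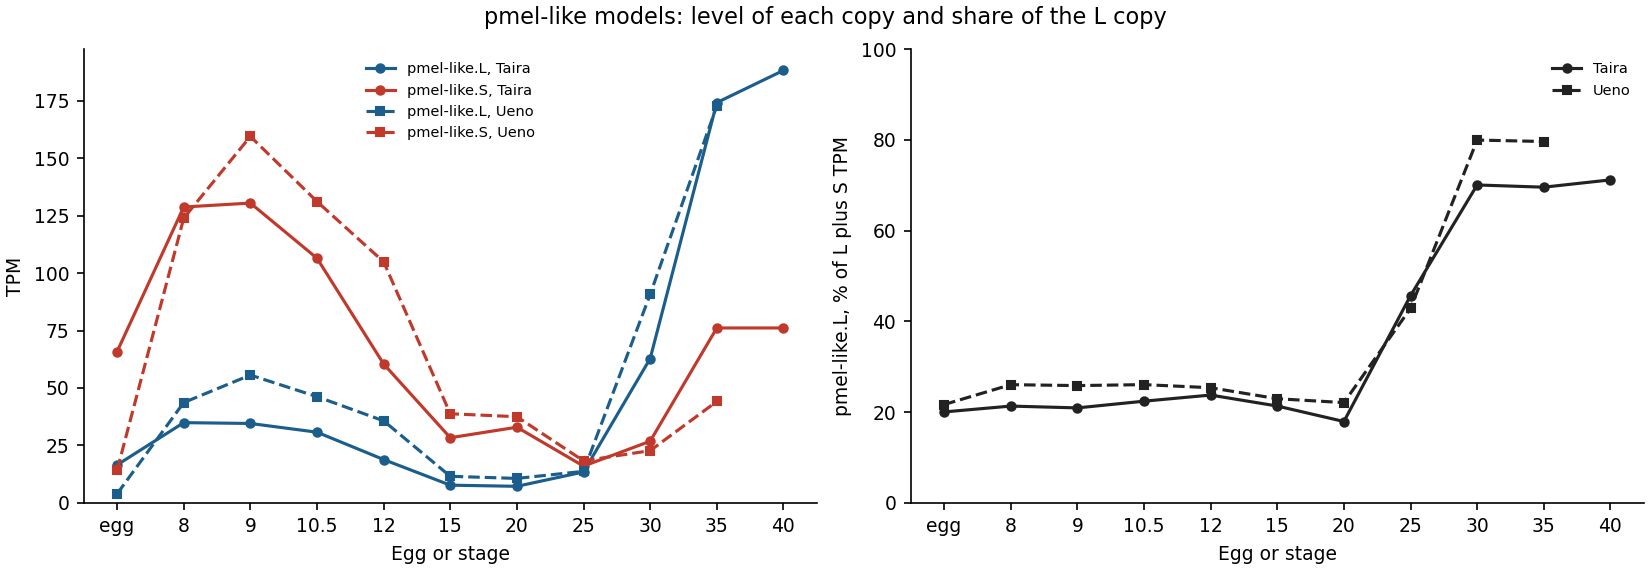
TPM of pmel-like.L and pmel-like.S (left) and the L copy as a percent of their sum (right) from egg to stage 40, solid lines for Taira and dashed lines for Ueno. The S copy is the higher one up to stage 25 and the L copy from stage 30 on, with the L share going from 17.9% to 26.1% up to stage 20 to 69.6% to 80% from stage 30 on.

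Across the 11 libraries of stages 15 to 40, Pearson correlations of log2(TPM + 1) between members ran from 0.804 (dct.L and oca2.L) to 0.986 (dct.L and tyr.S, and slc45a2.L and tyr.S). These libraries share 2 clutches and a stage order, so the values describe likeness and carry no p. Of 13863 models with a symbol and at least 5 TPM in 1 of these libraries, those most like dct.L were dupd1.1 (0.992), g6pc-like.1.L, tbr1.S and mcam-like.1 (all 0.991), LOC101732964.L, cacng6.L, pmel-like.L (0.987), folh1-like.L, tyr.S and nkx3-2.S. Those most like tyr.S were Xetrov90003819m.L (0.993), tbr1.S, LOC100496865.L, cryba1.S (0.989), pmel-like.L (0.987), LOC100486897-like.L, pmp2.S, slc45a2.L (0.986), dct.L and g6pc-like.1.L. Of the models most like tyr.S, slc45a2.L and dct.L stood at ranks 8 and 9, tyrp1.L at rank 264 and oca2.L at rank 882. Among those most like dct.L, slc45a2.L stood at rank 133, tyrp1.L at 607 and oca2.L at 1358.

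Other genes of pigment cells were read from 7 lists, with the change from stage 15 to 35 tested in the same fit. Against all models (19.9% higher, 31.5% lower, median -0.26), the list of melanin chemistry neighbours had 3 models higher, 1 lower and 2 not called of 6 tested, with a median of 1.17. The gene ddt.S, a homolog of macrophage migration inhibitory factor with D-dopachrome tautomerase activity, rose by 5.12 ± 0.60 (limma adjusted p = 1.52e-05), from 1.51 and 2.44 to 97.1 and 106 TPM in Taira and Ueno. The other copy, ddt.L, was the higher one at stage 15, with 20.4 and 30.1 TPM. It had 34.7 and 25.6 TPM at stage 35 and was not called (0.26 ± 0.45, adjusted p = 0.662). Phenylalanine hydroxylase, which makes tyrosine, rose as pah.L by 3.35 ± 0.62 (adjusted p = 0.000532) and as pah.S by 1.36 ± 0.32 (0.00321). In Taira pah.L was already at 19.6 TPM at stage 25, when the members were low. It had 34.9, 21.1 and 6.5 TPM at stages 30, 35 and 40 there. In Ueno it had 2.59, 8.41 and 8.72 TPM at stages 25, 30 and 35. The pmel relative gpnmb.L fell by 4.74 ± 0.52 (8.38e-06), from 66.6 and 58 to 1.99 and 0.87 TPM.

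Melanosome channels, receptors and matrix genes had 2 models higher, 2 lower and 6 not called of 10 tested, with a median of 0.29. With median-of-ratios scaling 4 were higher and 2 lower (median 0.52, against -0.02 for all models). The one with the largest rise was mlana-like.S, related to the melanosome protein Melan-A, which went from 1.22 and 1.36 TPM at stage 15 to 106 and 102 TPM at stage 35 (5.52 ± 0.62, limma adjusted p = 9.76e-06). On the log2 scale most of that came from stage 25 to 30 (4.60 ± 0.62, limma adjusted p = 0.000908), the step in which dct.L, tyr.S and slc45a2.L rose. In TPM the larger part came after stage 30, where mlana-like.S had 29 TPM in Taira and 44.9 in Ueno. The other copy mlana-like.L had 16.5 and 6.6 TPM at stage 35 and was not called from stage 15 to 35 (1.10 ± 0.49, limma adjusted p = 0.0759). The chloride transporter gene clcn7.L rose by 0.86 ± 0.28 (0.0186). The exchanger gene slc24a5.S, whose human counterpart affects skin colour, fell by 2.63 ± 0.52 (0.000839), to 2.49 and 1.26 TPM at stage 35. Its other copy slc24a5.L was the higher one, with 23.1 and 16.7 TPM at stage 35, and was not called (-1.21 ± 0.56, 0.0844). A fall of 1.52 ± 0.25 (0.000213) was found for tmem138.L, a member of this list whose link to melanosomes was not examined.

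The list of melanosome sorting and transport genes had 7 models higher, 3 lower and 22 not called of 32 tested, with a median of 0.01. With median-of-ratios scaling 10 were higher and 2 lower (median 0.41) and with quantile normalization also (median 0.43, against -0.05 for all models). Both copies of rab38, a small GTPase that routes tyrosinase-family cargo to melanosomes in mammals, were listed at 0 in Taira at stage 15. At stage 35 rab38.L had 16.1 and 12.8 TPM (3.94 ± 0.25, limma adjusted p = 7.09e-08), and rab38.S 7.73 and 8.29 TPM (2.88 ± 0.24, 6.98e-07). The subunit gene bloc1s2.L of the BLOC-1 sorting complex rose by 3.85 ± 0.47 (2.09e-05), while its other copy bloc1s2.S changed by -0.83 ± 0.36 and was not called (0.0664). The related GTPase gene rab32.L fell by 3.88 ± 0.53 (5.25e-05).

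Regulators of neural crest and melanophores had 3 models higher, 10 lower and 13 not called of 26 tested, with a median of -0.96, and 8 lower under either other scaling. The kit ligand genes kitlg.L and kitlg.S fell by 4.12 ± 0.62 (limma adjusted p = 0.000121) and 2.52 ± 0.54 (0.00151), and the crest factor pax3.L by 3.26 ± 0.45 (6.18e-05). The endothelin receptor gene ednrb2.S, which marks migrating melanoblasts in birds, rose by 3.20 ± 0.35 (7.36e-06), from 0 in both clutches at stage 15 to 13.8 and 4.72 TPM. In the earlier step from stage 12 to 15, in which 4 members fell, 13 of these 26 models were called higher and 0 lower, where 12.3% of all models were called higher and 10.4% lower. Their median change in that step was 1.15.

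Pigment hormones and their receptors were mostly too low to test. Of 23 models found, 5 were tested, of which 3 were higher and 1 lower. The melanotropin precursor gene pomc.L rose by 1.47 ± 0.22 (limma adjusted p = 0.000109), to 2.62 and 1.57 TPM at stage 35. The melanin-concentrating hormone precursor gene pmch.L fell by 2.17 ± 0.33 (0.00012). Of iridophore and xanthophore genes 6 models were higher, 2 lower and 11 not called of 19 tested, with a median of 0.59. They included spr.L, sepiapterin reductase of pteridine synthesis, at 2.84 ± 0.31 (7.35e-06), and adsl.L of purine synthesis at 2.41 ± 0.29 (1.8e-05). Those that fell were pnp.L, a purine salvage gene, by 2.36 ± 0.39 (0.000244), and gmps.L, of guanine nucleotide synthesis, by 1.56 ± 0.45 (0.00998). The other copy, pnp.S, rose by 1.52 ± 0.34 (0.00202), from 26.9 and 20.6 to 110.4 and 43.4 TPM.

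Markers of the retinal pigment epithelium did not move as 1 group. Of 16 tested models 4 rose, 7 fell and 5 were not called, with a median of -0.88. Those that fell included bmp7.1.L, bmp7.1.S, rdh10.1 and mertk.L. At stage 15 rdh10.1 had 242 and 231 TPM and bmp7.1.L 89.7 and 56.7 TPM in Taira and Ueno. Whether these transcripts lie in the retinal pigment epithelium was not tested, so the count and median describe the list and not that tissue. The retinoid-binding protein gene rlbp1.L rose by 3.43 ± 0.31 (limma adjusted p = 1.33e-06) and the gene of the receptor for retinol-binding protein, stra6.L, by 3.60 ± 0.31 (9.48e-07). The isomerase gene rpe65.S fell by 3.93 ± 0.39 (3.03e-06), from 273 and 169.8 to 15.1 and 11.5 TPM, while rpe65.L rose by 2.14 ± 0.46 (0.00166), and lrat.L, of the same visual cycle, fell by 3.20 ± 0.39 (1.94e-05).

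Summed over the 10 models of rpe65, rlbp1, lrat, stra6 and best1, these markers went from 321 and 209 TPM at stage 15 to 87.2 and 52.1 TPM at stage 35 in Taira and Ueno. Whether the transcripts of stage 15 lie in the retinal pigment epithelium was not tested, so the fall is not read as a fall of that tissue. Of the stage 15 sums rpe65.S made up 273 and 169.8 TPM, and without it the other 9 models had 48.2 and 39.3 TPM at stage 15 and 72.1 and 40.6 TPM at stage 35. At stage 35 none of the 10 was listed at 0 in Taira and 4 were in Ueno. The summed level of 6 neural crest models of sox10, foxd3 and twist1 went from 179 and 112 to 73 and 65.6 TPM. That of 4 iridophore models of pnp and alk went from 150.1 and 144.6 to 147.2 and 58.3 TPM. Of 4 xanthophore markers only 1 was found, gch1, which makes the pteridine precursor of xanthophores. It went from 5.79 and 3.97 to 19.8 and 12.4 TPM, with 20.2 and 22.3 TPM at stage 30. The part of each pigment cell type in the rise of the members was not tested.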

How the data were processed

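Poly-A RNA of whole embryos, eggs and oocytes was sequenced by the authors without strand information, per the labels' protocols. The authors deposited TPM per gene model, each library summing to between 999999 and 1000002. BWA 0.7.10 and RSEM 1.2.19 are named per the submitters' processing notes, and the cDNA set JGIv18pV2 per the labels. Read depth is unknown, so no counting error or detection floor is given. Copies and overlapping genes share reads, which RSEM divides.

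The 21 libraries of egg to stage 40, without stage 40 Ueno, were fitted with limma 3.58.1 in R 4.3.3 on the log2(TPM + 1) scale, with a term for each stage and 1 for the clutch as a block (eBayes with trend, 9 residual degrees of freedom). Of 45831 models the 28171 with at least 1 TPM in at least 2 of these libraries were tested, two-sided, with Benjamini-Hochberg adjustment within each of 8 contrasts and calls at an adjusted p under 0.05. A log2(TPM + 1) change understates that of low genes. The fit was also run on simulated data, drawn with independent noise around its own fitted values. Such data cannot show whether its assumptions hold for these libraries. Clutch is a label, and same-clutch libraries deviated together in 45 of 45 stage pairs (median correlation 0.416).

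Named list genes are the up to 4 per list called from stage 15 to 35 with the largest change and at least 2 TPM at the higher stage. Beside them stand the other copies rpe65.L, pnp.S, ddt.L, bloc1s2.S, slc24a5.L and mlana-like.L, chosen after their values were seen. The members and lists were chosen with earlier results of these data known. Alternatives were pseudocounts, filters, scalings, no block, no trend, stage 40 Ueno kept, the second collection added and each library left out. No sequence of a member was used here.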

Additional observations from a re-analysis of the deposited data

Results flagged for a closer look

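From stage 20 to 25, before the rise, the clutches moved in opposite directions for 3 of the 5 tested members, with 1 library per clutch and stage, so that the difference was not tested. On the log2(TPM + 1) scale slc45a2.L changed by -0.78 in Taira and 0.245 in Ueno, a difference of 1.025, between values of 0.2 and 1.06 TPM. For tyr.S the changes were 0.326 and -0.197 (difference -0.522), and for tyrp1.L -0.093 and 0.05 (difference 0.143). All of these levels were below 3 TPM.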

How the results depend on the processing

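All 5 tested members were called higher from stage 15 to 35 in each of 14 alternatives. Over all models that contrast had 3303 higher and 5706 lower calls with stage 40 Ueno kept, and 4966 lower without the replicate block (main 5595 and 8870). Members called lower from stage 12 to 15 (main 4) were 2 at pseudocount 5, 1 without the replicate block, 1 with stage 40 Ueno kept and 0 to 3 with 1 library left out. Members called higher from stage 25 to 30 (main 3) were 0 with stage 40 Ueno kept and 4 with quantile normalization, where tyrp1.L passed. From stage 30 to 35 (main 2) they were 1 at pseudocount 0.1, 1 with no filter, 0 without the replicate block, 0 with stage 40 Ueno kept and 0 to 1 with 1 library left out; slc45a2.L passed there at pseudocount 5 (adjusted p = 0.0242) and with quantile normalization (0.023). Between clutches (main 0 higher and 1 lower in Ueno), 1 was higher with median-of-ratios scaling and 1 with quantile normalization. Lower in Ueno were 2 at pseudocount 5, 2 with a filter at 5 TPM and 0 with quantile normalization. The count of 0 lower with the second collection added is no check of this difference. In that fit the term for Ueno may be set against the second collection instead of Taira. Leaving out the replicate block moved no other count by over 1.5 times.

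Onset moved to stage 30 for dct.L at 2 and 5 TPM, to 30 and 35 for tyrp1.L at 2 and 5 TPM, to 15 for tyr.S at 0.5 TPM, and for oca2.L to 40 at 5 TPM and to 30 in Taira alone or with 1 clutch sufficing. Sign changes occurred only in changes that were never called. With 1 library left out, the change from stage 15 to 20 was -0.573 to 0.374 for dct.L. From stage 20 to 25 it was -0.606 to 0.0537 for oca2.L, -0.628 to 0.0934 for slc45a2.L, -0.161 to 0.29 for tyr.S and -0.217 to 0.173 for tyrp1.L, and from stage 35 to 40 -0.297 to 0.082 for slc45a2.L, -0.106 to 0.534 for tyr.S and -0.0554 to 0.713 for tyrp1.L. From stage 20 to 25 tyr.S was -0.0368 with median-of-ratios scaling and -0.21 with quantile normalization. From stage 35 to 40 slc45a2.L was 0.0752 and 0.167 in these scalings and 0.0896 without the replicate block, oca2.L was 0.0407 without the replicate block, and tyr.S and tyrp1.L were -2.10 and -2.28 with stage 40 Ueno kept. The cause of each was not tested. All 26 list genes named for the size of their change kept their call in both scalings.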

Other observations

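The library labelled stage 40 Ueno, left out above, had 1.18 TPM of dct.L, 2.54 of tyr.S, 0.26 of tyrp1.L, 0.89 of slc45a2.L and 0.9 of oca2.L. The Ueno egg had 2.01, 4.45, 0.34, 1.24 and 1.47 TPM of these genes, and stage 40 Taira 133, 72.4, 74.8, 31.4 and 5.09 TPM. All 5 values thus lay below those of that egg.

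In the second collection the stage 8 library had 24.1 TPM of dct.L, 23.3 of tyr.S, 14 of tyrp1.L, 13.1 of slc45a2.L and 11.6 of oca2.L. Its stage 10 library, a stage with no counterpart in the first collection, had 24.1, 10.5, 17.4, 12 and 6.23 TPM of the same genes.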
